A study of Rattus norvegicus with 6 samples.

Results

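The genes described here are the prostaglandin-endoperoxide synthases Ptgs1 and Ptgs2, known as COX1 and COX2, in rat tenocytes with and without IL−1β. They were chosen by Ensembl identifier from a list of 3 genes, and 2 of the 3 were used: Ptgs1 (ENSRNOG00000007415) and Ptgs2 (ENSRNOG00000002525), among 19133 genes of the deposited table. The remaining gene of the list, the inducible nitric oxide synthase Nos2 (ENSRNOG00000011023), is not analysed here.

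Tenocytes, the fibroblast-like cells of tendon, were taken from the Achilles tendons of Sprague–Dawley rats and grown in serum-containing medium. The control group (n = 3 libraries) was kept in complete medium alone. The IL−1β group (n = 3 libraries) received the proinflammatory cytokine IL−1β at 50 ng/mL in the same medium for 24 h. The comparison asks which transcripts differ between resting tenocytes and tenocytes in an inflammatory setting, a cell model of tendinopathy. The study describes its replicates in general as independent experiments, without saying whether the sequenced libraries came from separate animals or from cells of the same animals. The p-values below therefore set the difference between groups against the spread between these libraries, which may or may not be spread between animals. The cell type label was not checked against marker genes, since the identifiers of other genes could not be paired with symbols.

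Both enzymes carry out the same step. They oxidise arachidonic acid, a fatty acid released from membrane phospholipids, to the endoperoxide from which downstream synthases make prostaglandins, prostacyclin and thromboxane. Ptgs1 is regarded as the constitutive form, present in many resting tissues, whereas Ptgs2 is the inducible form, a classical target of IL−1β in fibroblasts. Both are the targets of nonsteroidal anti-inflammatory drugs, which are widely given for tendon pain.

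The stretch just upstream of each gene's start is shown because both genes were higher with IL−1β and their promoters can be read side by side. The sequences are from RefSeq (GRCr8 build), which held an entry for both genes. Each is given 5′ to 3′ on the plus strand and covers the 250 bases before the annotated start. Capitals mark matches to the motifs searched.
Ptgs1, chr3:39981169-39981418: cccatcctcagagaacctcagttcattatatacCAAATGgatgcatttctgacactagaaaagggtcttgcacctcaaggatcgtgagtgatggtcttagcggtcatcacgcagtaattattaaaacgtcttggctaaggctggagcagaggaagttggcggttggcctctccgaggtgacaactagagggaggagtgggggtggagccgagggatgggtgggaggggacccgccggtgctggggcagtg
Ptgs2, chr13:64713813-64714062: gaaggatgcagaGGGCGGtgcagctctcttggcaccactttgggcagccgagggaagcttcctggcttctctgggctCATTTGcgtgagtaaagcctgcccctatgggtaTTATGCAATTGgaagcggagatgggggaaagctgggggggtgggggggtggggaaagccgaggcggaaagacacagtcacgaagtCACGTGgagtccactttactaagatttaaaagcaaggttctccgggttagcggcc

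The motifs were searched on both strands of a window that ran 250 bases before to 50 after the start. In the Ptgs2 window, a C/EBP motif (TTNNGNAA) began 140 bases before the start, reading TTATGCAA, and an E-box (CANNTG) overlapped its end. Other E-boxes of Ptgs2 began 173 and 55 bases before the start, the latter as CACGTG, and another began 1 base before it and so ran past the printed stretch. A GC box (GGGCGG) began 238 bases before the start of Ptgs2. The Ptgs1 window held 1 E-box (CAAATG, 217 bases before the start) and no other motif of the search. Among 33469 promoters of the same length, 41.3% held the C/EBP motif, 72.1% an E-box and 33.1% a GC box, so these matches are common. Neither window held the letters of a TATA box (TATAAA), a CRE (TGACGTCA), an AP-1 site (TGANTCA), an ISRE-like motif or the NF-kB consensus, which 14.2%, 1.83%, 7.33%, 3.92% and 4.18% of all promoters held. Such matches describe the letters in this window only. Bases G and C made up 57.2% of the printed Ptgs2 stretch and 54.4% of that of Ptgs1. The median over all promoters was 51.2%, and 67.9% of promoters had a lower share than Ptgs2 and 59.5% a lower share than Ptgs1.

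Expression was deposited as FPKM, fragments counted on a gene divided by the gene's length and by the fragment total of the library, which allows levels of both genes to be set side by side per length. The library totals implied by the values lay between 36619503 and 43227283 fragments. The gene lengths by which the authors divided were 2803 bases for Ptgs1 and 4373 bases for Ptgs2, recovered from the steps of the values. At this depth a count of 3 reads corresponds to at most 0.0291 FPKM for Ptgs1 and at most 0.0187 FPKM for Ptgs2. Both genes lay far above this floor in every library.

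Ptgs2, the inducible form, was at an intermediate level among tested genes in resting tenocytes and rose 16.5-fold with IL−1β. Its level in control libraries 1, 2 and 3 was 7.52, 7.69 and 8.02 FPKM, from 1271, 1231 and 1468 recovered reads. In IL−1β libraries 1, 2 and 3 it was 185.03, 107.7 and 121.5 FPKM, from 30079, 20351 and 19566 reads. The groups did not overlap, as for 25.5% of tested genes in this direction. The lowest IL−1β library was 13.4 times as high as the highest control library. Mean FPKM was 7.74 ± 0.257 in controls and 138.1 ± 41.3 with IL−1β (SD, n = 3 each). After scaling between libraries, the log2 fold change was 4.04 with a standard error of 0.19 (95% confidence interval 3.60 to 4.49, adjusted p = 5.5e-06 in limma). On the linear scale the interval was 12.1 to 22.4. The fit assumes the same spread in both groups, whereas the SD of the log2 level was 0.035 in controls and 0.43 with IL−1β. The interval and the p-value rest on that assumption, and separate spreads were not fitted. The pseudocount of 0.1 FPKM that enters before log2 understates changes of low genes, but at the level of Ptgs2 it mattered little. With 0.01 in its place the log2 fold change was 4.06, and with 1 it was 3.90. Of 12408 genes tested, 5.37% passed the same thresholds (adjusted p under 0.05 and log2 fold change over 1) in this direction. The rise of Ptgs2 was the 74th among all of these genes, and 99.4% of tested genes had a smaller log2 fold change.

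Ptgs1, the constitutive form, was already abundant in resting tenocytes and was moderately higher with IL−1β. Control libraries 1, 2 and 3 held 45.3, 47.8 and 45.4 FPKM (4905, 4907 and 5327 reads). IL−1β libraries 1, 2 and 3 held 66.8, 62.9 and 67.9 FPKM (6963, 7627 and 7010 reads). The lowest IL−1β library was 1.32 times as high as the highest control library, so the groups were separate. Such separation was common, as 25.5% of tested genes showed it in this direction. Mean FPKM was 46.2 ± 1.43 in controls and 65.9 ± 2.61 with IL−1β (SD, n = 3 each). The log2 fold change of Ptgs1 was 0.45 with a standard error of 0.05 (95% confidence interval 0.34 to 0.57, adjusted p = 2.8e-04 in limma), which is 1.37-fold with an interval of 1.27 to 1.48. The adjusted p was under 0.05, as for 19.3% of tested genes in this direction, but the change was under 2-fold and Ptgs1 was not counted as differentially expressed. With the FPKM values as deposited, before scaling between libraries, its log2 fold change was 0.51, and with quantile normalization it was 0.41. In the fit as reported, 86.2% of tested genes had a smaller log2 fold change than Ptgs1.

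**Figure D1:**
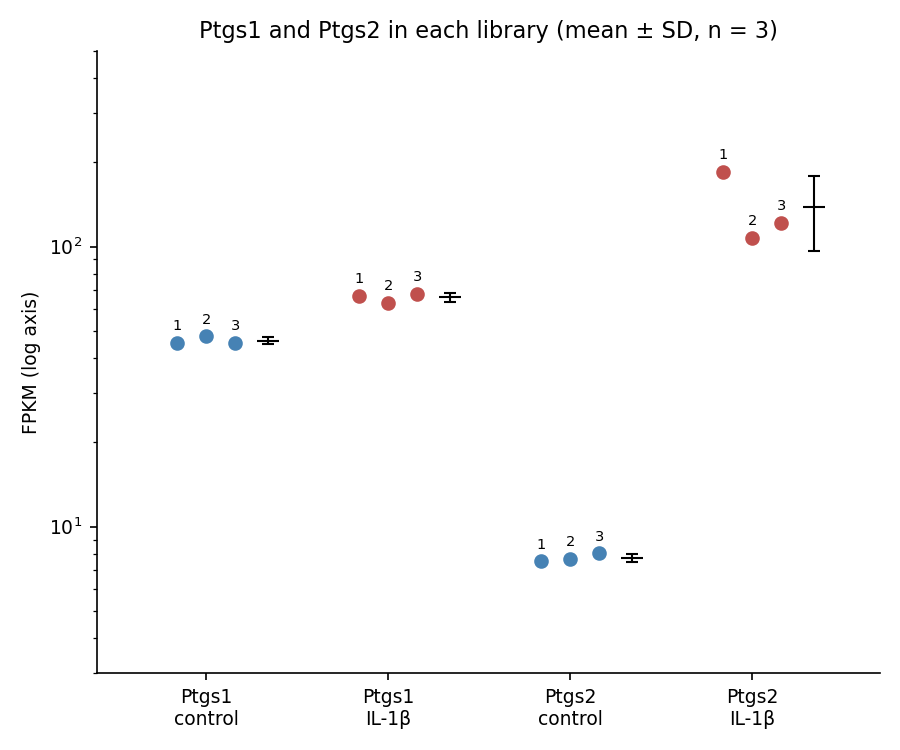
FPKM (log axis) of Ptgs1 and Ptgs2 in each library of the control (blue) and IL−1β (red) groups, numbered by replicate, with the mean and SD as a black bar to the right of the points (n = 3). Ptgs2 moved from between 7.52 and 8.02 FPKM to between 107.7 and 185.03 FPKM, whereas Ptgs1 moved from between 45.3 and 47.8 FPKM to between 62.9 and 67.9 FPKM.

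An exact permutation test of 1 gene, 3 libraries against 3, cannot go below p = 0.1 (two-sided). The adjusted p-values given here are from limma, which combines each gene's own spread with that of all tested genes. The plot of levels by library shows the groups apart for both genes, with the wider gap for Ptgs2.

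**Figure D2:**
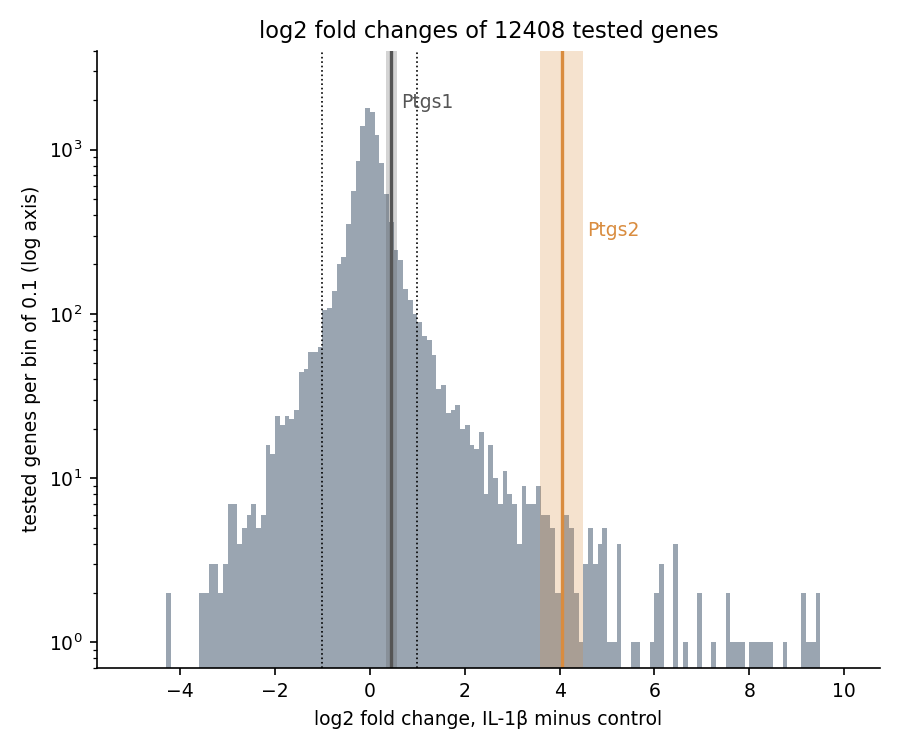
Number of tested genes per bin of 0.1 (log axis) by log2 fold change, IL−1β minus control, with the values of Ptgs1 (grey, 0.45) and Ptgs2 (orange, 4.04) as lines and their 95% confidence intervals as bands. The dotted lines mark the threshold of 1 in either direction. Ptgs2 lies in the thin right tail, while Ptgs1 lies toward the right of the main body of genes.

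The position of each gene among the tested genes shows the same difference on another scale. By mean FPKM, Ptgs2 was in the middle of the tested genes in the control group (rank 6322 of 12408, with 49.0% of genes below it). In the IL−1β group it was rank 528, with 95.7% of genes below it. Ptgs1 went from rank 1526 to rank 1164, with 87.7% and 90.6% of genes below it. Out of every 1000000 fragments, with no division by length, 33.9 ± 1.12 came from Ptgs2 in controls and 603.7 ± 180.4 with IL−1β (SD, n = 3 each). The corresponding values of Ptgs1 were 129.4 ± 4.00 and 184.7 ± 7.31.

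The order of the cyclooxygenases was inverted between the groups. Per length, Ptgs1 was 6.02, 6.22 and 5.66 times as abundant as Ptgs2 in control libraries 1, 2 and 3. In IL−1β libraries 1, 2 and 3, Ptgs2 was 2.77, 1.71 and 1.79 times as abundant as Ptgs1. Ptgs1 was the higher gene in every control library, and Ptgs2 in every IL−1β library. Counted as reads, without division by length, the inversion was also present, with 0.251 to 0.276 Ptgs2 reads per Ptgs1 read in the control libraries and 2.67 to 4.32 in the IL−1β libraries.

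The difference between the changes of the genes was tested on the ratio itself. The log2 ratio of Ptgs2 to Ptgs1 was −2.56 ± 0.07 in controls and 1.03 ± 0.38 after IL−1β (SD, n = 3 each), with the pseudocount of 0.1 in both genes. Its difference, 3.59 on the log2 scale or 12.0-fold, exceeded the spread among libraries of either group. The exact permutation test gave p = 0.1 (two-sided, n = 3 each), the smallest that 3 libraries against 3 can give, and this was the only pair compared. Since both genes are read from the same library, the scaling between libraries has almost no bearing on this value, which was 3.59 with the deposited values as well.

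The summed FPKM of Ptgs1 and Ptgs2 was 52.8, 55.5 and 53.4 in control libraries 1, 2 and 3. IL−1β libraries 1, 2 and 3 had sums of 251.8, 170.6 and 189.4, with no overlap between groups. The mean sum was 53.9 ± 1.41 in controls and 204.0 ± 42.5 after IL−1β (SD, n = 3 each), a ratio of 3.78 (exact permutation p = 0.1, two-sided, n = 3 each). Ptgs2 made up 14.2%, 13.9% and 15.0% of the sum in the control libraries. In the IL−1β libraries it made up 73.5%, 63.1% and 64.1%. Of the FPKM added between the group means, 130.3 belonged to Ptgs2 and 19.7 to Ptgs1, which puts 86.9% of the increase in Ptgs2. The sum is a sum of transcripts, and enzyme amount or activity was not measured in these libraries.

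**Figure D3:**
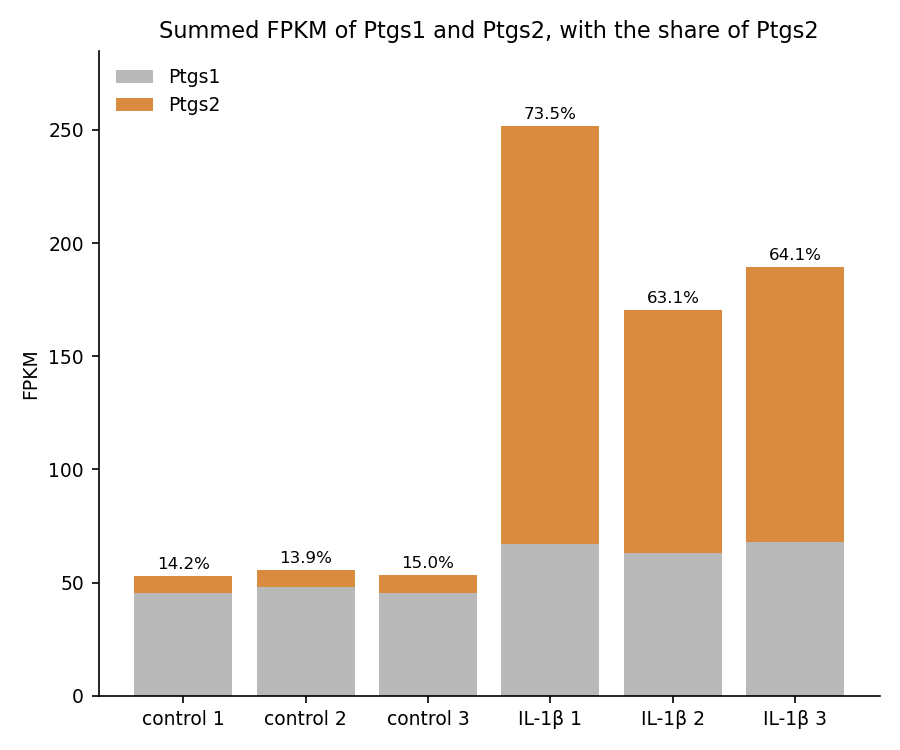
Stacked bars of the FPKM of Ptgs1 (grey) and Ptgs2 (orange) in each of the 6 libraries, with the share of Ptgs2 in the sum above each bar. The grey part is between 45.3 and 47.8 FPKM in the control group and between 62.9 and 67.9 FPKM in the IL−1β group, and the orange part grows from at most 15.0% of the bar in the control group to at least 63.1% in the IL−1β group.

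The genes also differed in how closely replicate libraries matched. Ptgs2 was steady in the control group, with a coefficient of variation of 3.32% between libraries, against 2.61% to 2.85% that counting of its reads alone would give. In the IL−1β group its coefficient of variation was 29.9%, while counting alone would give 0.577% to 0.715%. IL−1β library 1 was the high one, at 1.61 times the mean of libraries 2 and 3. The SD of the log2 level of Ptgs2 in the IL−1β group was 0.43, larger than that of 94.4% of tested genes. Ptgs1 varied by 3.09% between control libraries and by 3.96% between IL−1β libraries, where counting alone would give between 1.15% and 1.43%. Its SD of the log2 level in the IL−1β group was 0.06, and 26.8% of tested genes had a smaller one. The highest IL−1β library exceeded the lowest by 1.72-fold for Ptgs2 and by 1.08-fold for Ptgs1.

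IL−1β library 1, the highest for Ptgs2, was also the highest for most of the genes that rose past both thresholds. Of the 666 genes that passed both thresholds upward, 445 (66.8%) had their highest value in the same library, 94 in library 2 and 127 in library 3. The share over all tested genes was not counted, so whether library 1 was high beyond these rises was not tested. Whether this library differed in a way that bears on the level of Ptgs2 was not tested. Without IL−1β library 1, the log2 fold change of Ptgs2 was 3.80 with a standard error of 0.06, and the gene still passed both thresholds (adjusted p = 7.2e-07, limma). The log2 change of the Ptgs2 to Ptgs1 ratio was 3.37 without this library. In RNA from whole cultures, more cells that express a gene and more transcript per cell cannot be told apart, which holds for both genes here.

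**Figure D4:**
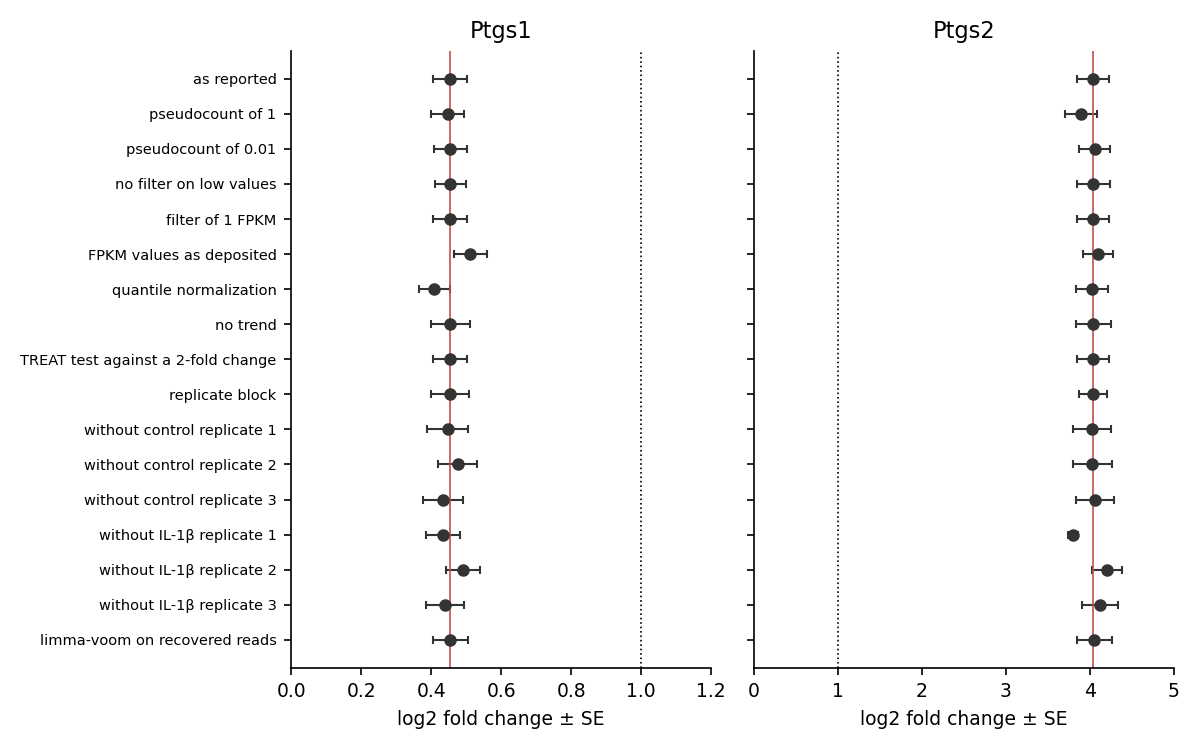
log2 fold change (IL−1β minus control) of Ptgs1 and Ptgs2 with its standard error in the fit as reported and in 16 alternative fits, with the reported value as a red line and the threshold of 1 as a dotted line (the horizontal axes differ). Ptgs2 stayed between 3.80 and 4.20 and Ptgs1 between 0.41 and 0.51, on their own sides of the threshold.

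The transcripts most like each gene were sought by the distance between profiles over the 6 libraries, after each gene's control mean was subtracted from its log2 values. Nearest to Ptgs2 was ENSRNOG00000004972, at a distance of 0.29, which went from 1.37 ± 0.0847 FPKM in controls to 25.0 ± 6.69 FPKM with IL−1β (SD, n = 3 each). Its log2 fold change was 4.00, close to that of Ptgs2, at a level several times lower. Nearest to Ptgs1 was ENSRNOG00000015385, at a distance of 0.05, with 12.01 ± 0.294 FPKM in controls and 17.1 ± 0.529 FPKM with IL−1β. Its log2 fold change was 0.45. The close log2 fold changes follow from the choice by distance and are not a separate result. A small distance says that the profiles are alike across these libraries and nothing about function.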

How the data were processed

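Polyadenylated RNA of 6 rat tenocyte libraries (3 control, 3 IL−1β) was sequenced by the authors as paired-end reads, and they deposited FPKM values per Ensembl gene, 1 column per library. HISAT2 and featureCounts are named in the submitters' processing notes. Their versions, the genome build, the annotation and the use of strand are not given in the sources used here. The paper's DESeq2 test takes counts and was not repeated.

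Low FPKM values step in whole multiples of 1 read, and these steps gave each gene's reads (Python 3.11.15, numpy 2.4.6, pandas 2.3.3), within 0.02 read for 99.46% of genes. Gene lengths came out whole within 0.02 base for 99.97% of the 12844 genes over 100 reads. FPKM values were divided by median-of-ratios size factors, 0.1 was added and log2 taken. The 12408 genes that reached 0.5 FPKM in 3 or more libraries were fitted in limma 3.58.1 (R 4.3.3) with an intensity trend, two-sided, with Benjamini-Hochberg adjustment over all of them. Calls needed a log2 fold change beyond 1 in either direction with an adjusted p under 0.05. Ratios were compared by exact permutation (scipy 1.17.1). The scripts were tested on simulated data. Confidence intervals are from limma and rest on the spread between libraries, of which counting error is a part. Floors are the FPKM of 3 reads.

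The genes and lists were chosen with earlier results of these data known. Genes named are those of the list and, for each, the nearest profile. Nos2 is not analysed here, since the table as used had values for 2 of the 3 listed identifiers. Planned lists of pathway and cell type genes were not used, since 0 of the 19133 identifiers could be paired with symbols in the RefSeq table used (GRCr8), and the symbols of Ptgs1 and Ptgs2 came with the list. Alternatives were 2 other pseudocounts, 2 other filters, 2 other scalings, no trend, TREAT, a replicate block, each library left out in turn and limma-voom on recovered reads. Promoter sequences are RefSeq's. Figures were drawn with matplotlib 3.10.9.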

Additional observations from a re-analysis of the deposited data

How the results depend on the processing

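In each of 16 alternative fits, Ptgs2 passed both thresholds, and Ptgs1 was higher with IL−1β by less than 2-fold and was not called. The log2 fold change lay between 3.80 and 4.20 for Ptgs2 and between 0.41 and 0.51 for Ptgs1. The ratio of Ptgs2 to Ptgs1 changed by 3.37 to 3.71 on the log2 scale over 10 alternatives. The adjusted p of Ptgs1 stayed under 0.05 in limma except in the TREAT test against a 2-fold change, which it did not pass. Of all tested genes, 1078 were called (666 higher, 412 lower). With a pseudocount of 1 the count was 697 (466 and 231), and with TREAT it was 520 (358 and 162). TREAT calls fewer by its construction, and a larger pseudocount shrinks the log2 fold changes of low genes. How many calls were lost through that shrinkage was not tested. With a pseudocount of 0.01, 1138 genes were called. Of the 1078 calls as reported, 61.8% were higher, and 65.5% were with FPKM as deposited and 55.8% after quantile normalization. With each library left out in turn, the count ranged from 1042 to 1109, the log2 fold change of Ptgs2 from 3.80 to 4.20 and that of Ptgs1 from 0.43 to 0.49.

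The study's methods name no pairing of libraries, so the reported fit did not take the numbers as pairs. The deviations of same-numbered libraries correlated at 0.09, 0.02 and 0.03 across genes. These values cannot tell whether such libraries shared an animal or a batch. With the replicate block, the log2 fold change was 4.04 (standard error 0.16) for Ptgs2 and 0.45 (standard error 0.05) for Ptgs1, 1080 genes were called, and the paired change of the ratio was 3.59 (exact permutation p = 0.25, the smallest that 3 pairs can give). Alternatives planned for Nos2 and its ratios were not run. Depth does not limit Ptgs1 or Ptgs2, which had at least 1231 reads in every library.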
